A study of Mus musculus with 35 samples.

Results

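Histone chaperones are the proteins that carry histones and place them on DNA, and the 9 chaperone genes described here, Hira, Cabin1, Ubn1, Asf1a, Asf1b, Chaf1a, Chaf1b, Npm2 and Daxx, were taken by name from a count table of 24480 mouse genes. All 9 were found in the table and passed the filter on low counts in every comparison. The study asked what the loss of the histone mark H3K4me3 does to transcription in the early embryo, and it used injection of mRNA for the H3K4me3 demethylase KDM5B to remove the mark. RNA was sequenced from wild-type C57BL/6NRj embryos fertilised in vivo, injected into the cytoplasm either with nuclease-free water (controls) or with Kdm5b-yfp mRNA at about 1150 ng per µl. The 4 groups were 10 control zygotes, 10 Kdm5b zygotes, 9 control 2-cell (2C) samples and 6 Kdm5b 2C samples, 35 in all. Zygotes were taken 17 h after ovulation. The 2C embryos came from frozen and thawed zygotes, were injected soon after they had divided and were taken 5.5 to 8 h after division, so the 2C groups did not carry the injection from the zygote on. Stage therefore cannot be told apart from freezing or from the day of library preparation, and an effect of KDM5B cannot be told apart from one of injected mRNA as such. Of the 2C samples, 3 control samples and 1 Kdm5b sample were pools of single blastomeres from different embryos. All other samples were single intact embryos. In the GRCm38 annotation Hira lies at chr16:18876750-18970309, Ubn1 at chr16:5050068-5086285 and Chaf1b at chr16:93883901-93906106, all on the + strand. Asf1a lies at chr10:53596961-53609225 on the + strand and Cabin1 at chr10:75646110-75764357 on the - strand. Chaf1a (chr17:56040416-56068026) and Daxx (chr17:33909445-33915590) are on the + strand, as is Asf1b (chr8:83955694-83970195), and Npm2 (chr14:70647302-70653084) is on the - strand. Counts were summed over all exons of each gene, untranslated regions included.

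HIRA, CABIN1 and UBN1 form a complex that deposits the histone variant H3.3 outside DNA replication, and it places H3.3 in the paternal pronucleus after fertilisation, when sperm protamines are replaced by histones. CHAF1A and CHAF1B are subunits of CAF-1, which places H3 and H4 on newly replicated DNA. ASF1A and ASF1B are related proteins that hold H3-H4 dimers and hand them to HIRA or CAF-1. NPM2, nucleoplasmin, is an abundant egg protein that works in chromatin remodelling of the sperm genome, and DAXX deposits H3.3 at repeats together with ATRX. The 2C stage is when most transcription of the embryo's own genome starts in the mouse and maternal RNA is cleared. The paper states that its sequenced 2C samples were collected before the time when that transcription normally starts.

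Each sample held between 8705584 and 17797581 counts. The Kdm5b gene took between 2.30 and 10.4% of counts in Kdm5b zygotes and between 8.27 and 15.8% in Kdm5b 2C samples, against at most 0.0189% in controls, and its row was removed before normalization so that the injected mRNA did not lower all other genes. No external RNA was added to the samples, so every value is relative to the other transcripts of the sample, and less RNA of a gene cannot be told apart from more RNA of the rest. Levels are given as TPM, which divides each count by gene length and scales every sample to the same total. The 8 oocyte and zygote markers were all present, with summed levels from 8747 to 10905 TPM in zygotes and from 4715 to 9058 TPM in 2C samples. The 7 2-cell markers summed to between 27.5 and 120 TPM in zygotes and between 274 and 1042 TPM in 2C samples. Of the 12 cumulus cell markers, between 6 and 9 had a median count of 0 in each group, and their summed level ranged from 11.8 to 46.3 TPM over all samples, most of it from Cyp19a1. Amh, Inha, Pgr and Ptx3 were at a median of 0 in every group. Of the 5 sperm markers only Prm2 had a median above 1 TPM, and Tnp1 and Tnp2 had a median of 0 in every group. The part of these cells in the results was not tested.

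Levels were compared between genes in TPM only. In control zygotes Npm2 was by far the most abundant of the 9 transcripts, with a median of 2934 TPM, followed by Chaf1a with 609 TPM. Asf1a had a median of 245 TPM, Asf1b 189 TPM, Ubn1 147 TPM and Cabin1 119 TPM. Daxx, with 35.8 TPM, Hira, with 18.8 TPM, and Chaf1b, with 15.7 TPM, formed a low group. The ranges of neighbours in this order overlapped only for Asf1b and Ubn1, where Asf1b was above Ubn1 in 9 of 10 zygotes, and for Hira and Chaf1b, where Hira was above Chaf1b in 8 of 10. Thus the subunits of one complex were not at equal RNA levels, and Hira and Chaf1b were each far below their partners. The 9 transcripts together had a median of 4327 TPM in control zygotes, 4062 TPM in Kdm5b zygotes, 2590 TPM in control 2C samples and 2252 TPM in Kdm5b 2C samples, and most of each sum was Npm2.

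**Figure D1:**
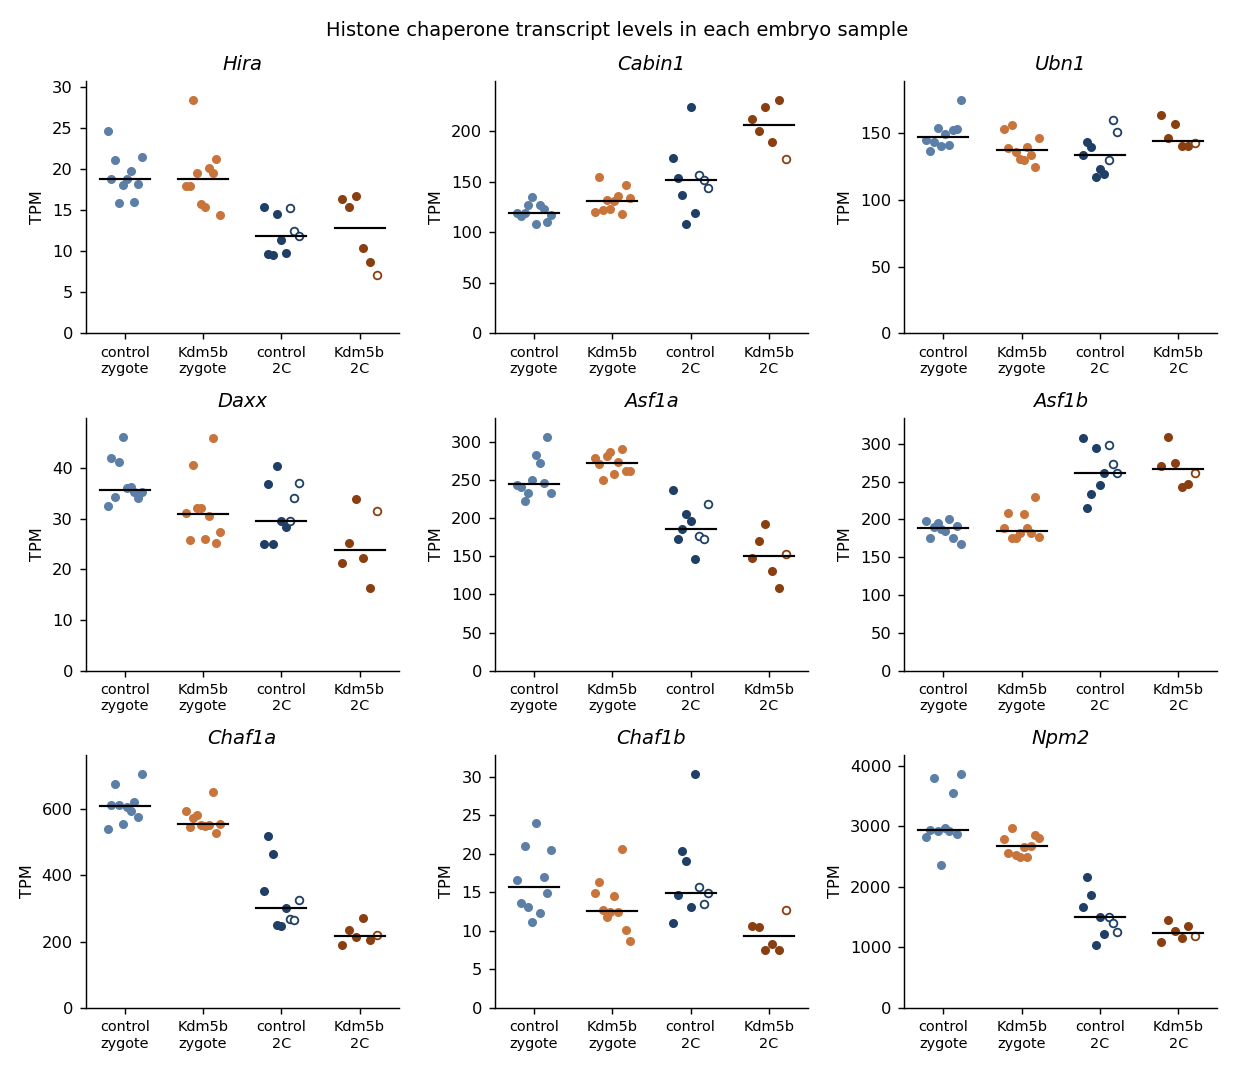
TPM (vertical axis, from 0) of each of the 9 genes in every sample of the 4 groups (horizontal axis). Filled points are single intact embryos, open points are pools of blastomeres and the black bar is the group median. Npm2 and Chaf1a fell from the zygote to the 2C stage without overlap of the control groups, and Asf1b rose without overlap.

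The question of the stage comparison in controls was how these transcripts differ between a zygote late in its cell cycle and an early 2C embryo. Asf1b and Cabin1 were higher in 2C samples, and Npm2, Chaf1a, Hira and Asf1a were lower. Thus 2 of 9 genes rose and 4 of 9 fell at an adjusted p under 0.05 (edgeR quasi-likelihood test, Benjamini-Hochberg adjustment over 11968 genes), while 3 did not pass. Of all genes tested, 26.8% were called higher and 25.4% lower, so change as such was common at this step and the share of these 9 genes that changed does not set them apart. The median log2 fold change of the 9 genes was -0.14, against 0.022 over all genes. None of the 9 also passed a log2 fold change of 1, which 22.2% of all genes did together with the adjusted p. The same 6 genes were called in all 19 fits that left out a sample. In Kdm5b embryos, which share no sample with the controls, these 6 genes moved the same way and Ubn1 rose as well, so 3 of 9 were called higher and 4 lower, against a background of 29.3% and 29.5% of 12390 genes.

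Hira encodes the subunit that gives the complex its name. It ranged from 15.8 to 24.6 TPM (median 18.8) in control zygotes and from 9.55 to 15.4 TPM (median 11.9) in control 2C samples, on 136 to 667 counts a sample in controls. No control 2C sample reached the lowest control zygote. The log2 fold change was -0.57 (SE 0.14, adjusted p = 0.000973). In Kdm5b zygotes Hira ranged from 14.4 to 28.4 TPM (median 18.8) and in Kdm5b 2C samples from 7.10 to 16.8 TPM (median 12.9), with a log2 fold change of -0.52 (SE 0.18, adjusted p = 0.0137). These groups overlapped, since 3 of 6 Kdm5b 2C samples lay within the zygote range.

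Cabin1 encodes another subunit of the HIRA complex. It ranged from 108 to 135 TPM (median 119) in control zygotes and from 108 to 224 TPM (median 151) in control 2C samples. The rise was seen in 7 of 9 control 2C samples, which lay above every control zygote, and the other 2 lay within the zygote range. The log2 fold change was 0.42 (SE 0.10, adjusted p = 0.000635). Kdm5b zygotes ranged from 118 to 154 TPM (median 131) and Kdm5b 2C samples from 172 to 231 TPM (median 206), with no overlap and a log2 fold change of 0.73 (SE 0.07, adjusted p = 1.00e-08).

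Ubn1 encodes the subunit that recognises H3.3, and its level varied least of the 9 over all samples. It ranged from 137 to 175 TPM (median 147) in control zygotes and from 118 to 160 TPM (median 134) in control 2C samples, with a log2 fold change of -0.051 (SE 0.08, adjusted p = 0.616). In Kdm5b zygotes it ranged from 125 to 156 TPM (median 138), and in Kdm5b 2C samples from 140 to 164 TPM (median 144). That small difference, 0.20 on the log2 scale (SE 0.07), passed at an adjusted p of 0.0179, but not without the filter on low counts (log2 fold change 0.12, adjusted p = 0.206). The subunits of the HIRA complex thus went different ways at this step in controls, with Hira lower, Cabin1 higher and Ubn1 not called. Daxx did not pass either. It ranged from 32.6 to 46.2 TPM (median 35.8) in control zygotes and from 25.0 to 40.4 TPM (median 29.6) in control 2C samples, with a log2 fold change of -0.14 (SE 0.12, adjusted p = 0.344). In Kdm5b embryos it ranged from 25.2 to 45.9 TPM (median 30.9) in zygotes and from 16.3 to 33.9 TPM (median 23.8) at 2C, with a log2 fold change of -0.22 (SE 0.17, adjusted p = 0.261).

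The related genes Asf1a and Asf1b moved in opposite directions. Asf1a ranged from 222 to 307 TPM (median 245) in control zygotes and from 147 to 237 TPM (median 186) in control 2C samples, of which 8 of 9 lay below every control zygote. The log2 fold change was -0.32 (SE 0.09, adjusted p = 0.00376). Asf1b ranged from 167 to 201 TPM (median 189) in control zygotes and from 216 to 308 TPM (median 262) in control 2C samples, with no overlap. Its log2 fold change was 0.60 (SE 0.08, adjusted p = 7.92e-07). Kdm5b embryos showed both changes without overlap between the stages. Asf1a went from 251 to 292 TPM (median 273) in Kdm5b zygotes to 109 to 193 TPM (median 151) in Kdm5b 2C samples, with a log2 fold change of -0.75 (SE 0.10, adjusted p = 6.18e-07). Asf1b went from 175 to 230 TPM (median 185) to 243 to 309 TPM (median 266), with a log2 fold change of 0.59 (SE 0.09, adjusted p = 2.88e-06).

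By counts per length, the more abundant of the Asf1 transcripts therefore changed between the stages. Which of them is above the other rests on the annotated exon lengths, 2192 bases for Asf1a and 1599 for Asf1b. In raw counts Asf1a was above Asf1b in control 2C replicate 9 (1741 and 1515) and below it in replicate 6 (983 and 1277). The change of the ratio between the stages does not depend on these lengths. The ratio of Asf1a to Asf1b, from counts per length within each sample, was above 1 in 10 of 10 control zygotes (1.17 to 1.61, median 1.37) and in 10 of 10 Kdm5b zygotes (1.14 to 1.61, median 1.47). It was above 1 in 0 of 9 control 2C samples (0.562 to 0.838, median 0.771) and in 0 of 6 Kdm5b 2C samples (0.441 to 0.702, median 0.549). In controls the mean log2 ratio was 0.44 in zygotes and -0.49 in 2C samples, a difference of -0.92 (SE 0.09, exact two-sided permutation p = 2.17e-05, the smallest that 9 against 10 samples allow, adjusted p = 0.000195 over 9 ratio tests). Between the 2C groups the ratio was lower in Kdm5b samples, with mean log2 ratios of -0.85 and -0.49 and a difference of -0.36 (SE 0.11, exact permutation p = 0.00919, adjusted p = 0.0276). Of the 6 Kdm5b 2C samples, 4 lay below every control 2C sample and 2 within the control range. The difference was -0.44 within the run of 8 index numbers that held 3 control and 5 Kdm5b samples (exact permutation p = 0.0357, the smallest that this split allows). Between the zygote groups the difference was 0.07 (SE 0.07, permutation p = 0.301). Neither gene passed on its own between the 2C groups (edgeR adjusted p = 0.509 for Asf1a and 0.952 for Asf1b). The genes were chosen with earlier results of these data known, and no background of other gene pairs was computed for the ratio tests.

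**Figure D2:**
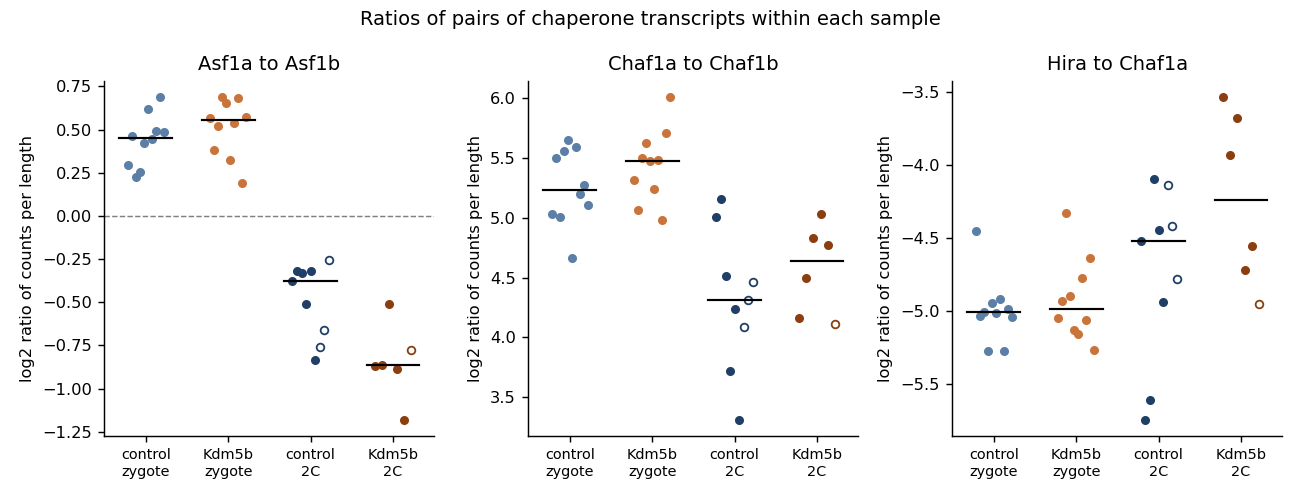
Log2 ratios of counts per length (vertical axes) of Asf1a to Asf1b, Chaf1a to Chaf1b and Hira to Chaf1a in every sample of the 4 groups. Filled points are single intact embryos, open points pools, black bars medians, and the dashed line marks equal levels. All 20 zygotes lie above that line for Asf1a to Asf1b and all 15 2C samples below it.

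The promoters of 4 genes that changed are shown because Asf1a and Chaf1a fell while Asf1b and Cabin1 rose. Each runs from 250 bases before to 50 after the gene's start in RefSeq (build GRCm38.p6, on the gene's strand), and the table held promoters of 8 of the 9 genes, with no entry for Npm2. Capitals mark matches on either strand to CCAAT (the CCAAT box, ATTGG on the other strand), TTCCCGC (E2F site, GCGGGAA on the other strand) or CACGTG (E-box). No 2 matches overlapped.
Asf1a, chr10:53596711-53597010, + strand: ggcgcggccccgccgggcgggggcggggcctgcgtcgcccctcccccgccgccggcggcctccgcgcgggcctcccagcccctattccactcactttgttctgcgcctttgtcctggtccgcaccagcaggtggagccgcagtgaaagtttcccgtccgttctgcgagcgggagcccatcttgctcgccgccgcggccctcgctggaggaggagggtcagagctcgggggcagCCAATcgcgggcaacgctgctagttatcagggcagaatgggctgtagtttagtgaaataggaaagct
Asf1b, chr8:83955444-83955743, + strand: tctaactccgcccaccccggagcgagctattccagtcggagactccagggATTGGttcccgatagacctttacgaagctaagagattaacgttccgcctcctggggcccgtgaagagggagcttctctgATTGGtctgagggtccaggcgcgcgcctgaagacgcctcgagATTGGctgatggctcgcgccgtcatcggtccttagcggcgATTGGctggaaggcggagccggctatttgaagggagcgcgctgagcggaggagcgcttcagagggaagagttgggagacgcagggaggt
Cabin1, chr10:75764308-75764607, - strand: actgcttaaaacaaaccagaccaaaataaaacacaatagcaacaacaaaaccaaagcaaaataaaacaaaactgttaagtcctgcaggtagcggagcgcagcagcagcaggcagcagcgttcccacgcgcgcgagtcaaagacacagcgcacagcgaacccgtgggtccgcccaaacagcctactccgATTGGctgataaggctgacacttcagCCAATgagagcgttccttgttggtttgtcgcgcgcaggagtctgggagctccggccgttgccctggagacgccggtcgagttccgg
Chaf1a, chr17:56040166-56040465, + strand: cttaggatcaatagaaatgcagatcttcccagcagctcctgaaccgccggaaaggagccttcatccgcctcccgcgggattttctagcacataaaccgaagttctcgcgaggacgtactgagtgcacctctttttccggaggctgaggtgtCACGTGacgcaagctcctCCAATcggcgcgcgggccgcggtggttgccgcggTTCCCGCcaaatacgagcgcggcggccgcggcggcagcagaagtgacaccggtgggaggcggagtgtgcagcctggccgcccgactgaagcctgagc

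Asf1b held 4 CCAAT boxes, beginning 200, 121, 79 and 39 bases before the start, and 1.06% of the 32851 mouse promoters in the table held at least 4. Cabin1 and Ubn1 each held 2, and 11.7% of promoters held at least 2. Asf1a, Chaf1a and 1 of the 3 Daxx promoters held 1, Hira and Chaf1b held none, and 37.4% of promoters held at least 1. The E2F letters, found in 4.60% of promoters, were present once in Chaf1a and at 2 places in Chaf1b, that is in both CAF-1 subunits and in none of the other 6 genes with a promoter in the table. CACGTG, found in 7.15% of promoters, was present once in Chaf1a and at 2 places in Ubn1. All 8 genes had CpG-rich promoters, with 22 to 36 CpG in 300 bases against a median of 7 and an upper quartile of 20 over all promoters. The shares given above are over all promoters, most of them poorer in CpG than these. Shares among promoters of like CpG content were not computed. These matches describe letters only and were not tied to the changes by any test.

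Chaf1a, the large CAF-1 subunit, had the largest change between stages of the 9 genes in Kdm5b embryos, and in controls the largest after Npm2. It ranged from 540 to 706 TPM (median 609) in control zygotes and from 248 to 519 TPM (median 302) in control 2C samples, with no overlap. The log2 fold change was -0.79 (SE 0.12, adjusted p = 5.68e-06). In Kdm5b embryos it went from 527 to 651 TPM (median 555) in zygotes to 191 to 272 TPM (median 217) at 2C, a log2 fold change of -1.24 (SE 0.09, adjusted p = 2.21e-11). Chaf1a was the only gene of the 9 to pass both thresholds there, as 26.5% of all genes did. Chaf1b, the other CAF-1 subunit measured, was scarce, on 49 to 220 counts a sample. It ranged from 11.1 to 24.0 TPM (median 15.7) in control zygotes and from 10.9 to 30.3 TPM (median 14.8) in control 2C samples. The log2 fold change was 0.13 (SE 0.21, adjusted p = 0.642), and it was -0.015 without control 2C replicate 6, the sample at 30.3 TPM. In Kdm5b embryos Chaf1b ranged from 8.65 to 20.6 TPM (median 12.5) in zygotes and from 7.43 to 12.7 TPM (median 9.37) at 2C, with a log2 fold change of -0.38 (SE 0.22, adjusted p = 0.136), which passed without Kdm5b 2C replicate 6 (-0.53, adjusted p = 0.0481).

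The CAF-1 subunits thus came closer in level at 2C in controls. The ratio of Chaf1a to Chaf1b had a median of 37.6 (25.3 to 50.05) in control zygotes and of 19.8 (9.94 to 35.6) in control 2C samples. The difference of mean log2 ratios was -0.94 (SE 0.22, exact permutation p = 0.000346, adjusted p = 0.00156), with 7 of 9 2C samples below every zygote. The other 2, at 32.2 and 35.6, lay within the zygote range. These 2 and a sample at 22.9 shared a run of 8 index numbers, and the 6 control 2C samples of the other run ranged from 9.94 to 22.0. In Kdm5b embryos the median ratio was 44.5 (31.5 to 64.3) in zygotes and 24.8 (17.3 to 32.7) at 2C. Neither injection difference passed, with 0.18 in zygotes (SE 0.14, permutation p = 0.208) and 0.26 at 2C (SE 0.25, exact permutation p = 0.358). The ratio of Hira to Chaf1a, which sets the replication-independent against the replication-coupled route, did not pass in any comparison. Its difference of mean log2 ratios was 0.25 between the stages in controls (SE 0.21, exact permutation p = 0.230), 0.07 between the zygote groups (SE 0.11, permutation p = 0.549) and 0.51 between the 2C groups (SE 0.31, exact permutation p = 0.121).

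Npm2 had the largest fall of the 9 in controls. It ranged from 2368 to 3865 TPM (median 2934) in control zygotes and from 1044 to 2163 TPM (median 1501) in control 2C samples, with no overlap, and was still the most abundant of the 9 in every 2C sample. The log2 fold change was -0.96 (SE 0.12, adjusted p = 1.98e-07), close to the fold threshold, so that it passed both thresholds when control 2C replicate 2 or replicate 3 was left out. Kdm5b zygotes ranged from 2491 to 2965 TPM (median 2673) and Kdm5b 2C samples from 1082 to 1447 TPM (median 1230), again with no overlap. There the log2 fold change was -0.997 (SE 0.08, adjusted p = 1.76e-10), just short of 1 in size. It passed both thresholds without Kdm5b zygote replicate 2, 4, 5 or 7 or without Kdm5b 2C replicate 2, 3, 5 or 6.

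With these changes the order of levels at 2C differed from that in zygotes. In control 2C samples the medians ran from Npm2 through Chaf1a, Asf1b, Asf1a, Cabin1, Ubn1, Daxx and Chaf1b to Hira. Beyond Npm2 the order was loose, since Chaf1a was above Asf1b in 6 of 9 samples and Cabin1 above Ubn1 in 4 of 9. In Kdm5b 2C samples Asf1b came after Npm2, Chaf1a was above Cabin1 in 3 of 6 samples and Asf1a above Ubn1 in 3 of 6. The ranges of the neighbours compared in these counts overlapped, while Npm2 did not overlap any other of the 9 genes at 2C.

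**Figure D3:**
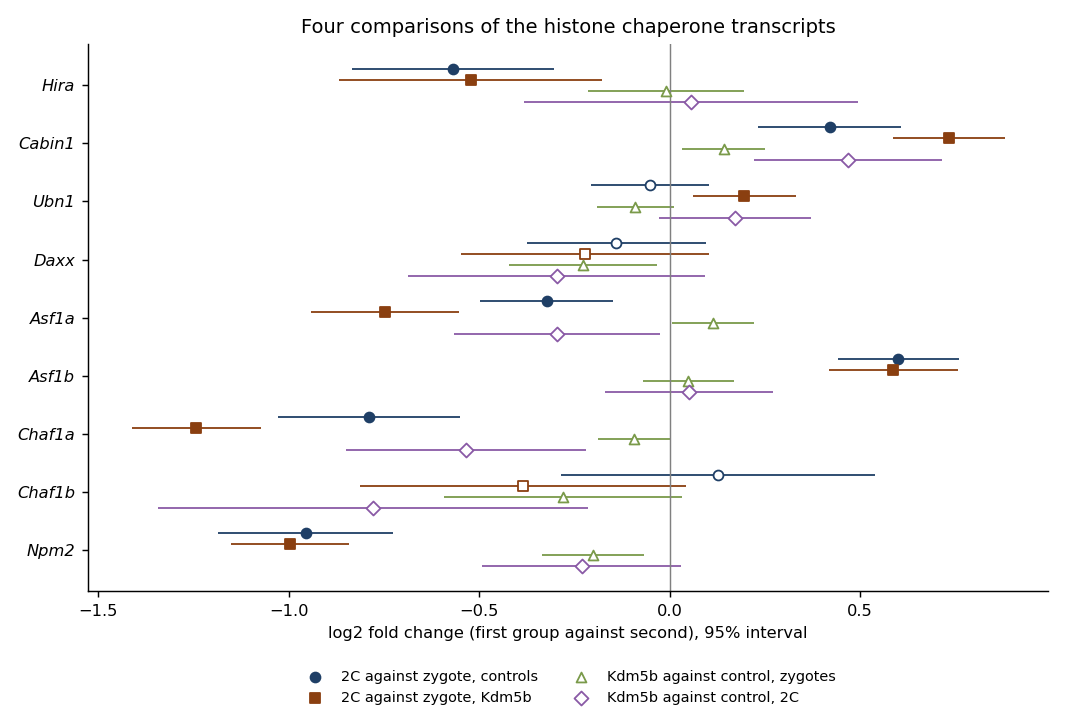
Log2 fold change (horizontal axis, with 95% interval from the standard error) of each of the 9 genes in 4 comparisons, edgeR quasi-likelihood test. Filled points passed an adjusted p of 0.05 and open points did not; 6 genes were called between the stages in controls, 7 in Kdm5b embryos and 0 in either comparison of Kdm5b with control embryos.

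The comparison of Kdm5b with control embryos addressed whether the injection changed these transcripts at a given stage. In zygotes 0 of 9 genes passed an adjusted p of 0.05, against a background of 0.134% of 11933 genes, and 0 passed with DESeq2 or limma voom. The log2 fold changes lay between -0.28 for Chaf1b (SE 0.16) and 0.14 for Cabin1 (SE 0.06). At an unadjusted p under 0.05 there were 4 of 9, Asf1a (0.11, SE 0.05), Cabin1, Daxx (-0.23, SE 0.10) and Npm2 (-0.20, SE 0.07), where 10.3% of all genes were below that p. The smallest adjusted p was 0.291, for Npm2, which was below the control mean in 10 of 10 Kdm5b zygotes while the ranges overlapped. That mean, 3104 TPM, lay above the control median of 2934 TPM, so most control zygotes were below it too.

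At the 2C stage 0 of 9 passed, against 0.0245% of 12244 genes. Unadjusted, 4 of 9 were under 0.05, Asf1a, Cabin1, Chaf1a and Chaf1b, with 9.41% of all genes below that p. Cabin1 was higher by 0.47 (SE 0.13, adjusted p = 0.244) and above the control mean in 6 of 6 samples. Chaf1a was lower by a log2 fold change of -0.53 (SE 0.16, adjusted p = 0.280), Chaf1b by -0.78 (SE 0.29, adjusted p = 0.378) and Asf1a by -0.30 (SE 0.14, adjusted p = 0.509). Chaf1a and Chaf1b were below the control mean in 6 of 6 Kdm5b 2C samples and Asf1a in 5 of 6. Below every control 2C sample were 5 of 6 Kdm5b 2C samples for Chaf1a, 5 of 6 for Chaf1b and 2 of 6 for Asf1a. For Chaf1a the control mean was 333 TPM and the control median 302 TPM. The values were 16.9 and 14.8 TPM for Chaf1b and 190 and 186 TPM for Asf1a. With each mean above the median, most control 2C samples were below it too. The other 5 genes had log2 fold changes between -0.30 for Daxx (SE 0.20) and 0.17 for Ubn1 (SE 0.10).

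Whether Chaf1a and Cabin1 were called at 2C depended on the fit. Embryos were collected in strips of 8 tubes, but no source used here ties a sample to a strip, so strips were inferred as runs of 8 consecutive index numbers and are not batches given by the labels. Of these inferred strips, the strip numbered 11 held 3 control and 5 Kdm5b 2C samples and the strip numbered 12 held 6 control and 1 Kdm5b sample. All control pools were in strip 12 and the Kdm5b pool in strip 11. With 1 Kdm5b sample in strip 12, a fit with strip as a covariate takes the strip difference mostly from controls. Chaf1a ranged from 352 to 519 TPM in the 3 controls of strip 11, from 248 to 327 TPM in the 6 controls of strip 12, from 191 to 272 TPM in the 5 Kdm5b samples of strip 11 and was 203 TPM in the Kdm5b sample of strip 12. Controls were thus highest in strip 11, where they did not overlap the Kdm5b samples. With strip as a covariate the log2 fold change of Chaf1a was -0.75 (SE 0.14, adjusted p = 0.00723), with 2.07% of all genes called, and within strip 11 it was -0.91 (SE 0.17, adjusted p = 0.0320), with 0.893% called. It also passed when all 35 samples were fitted at once and shared an estimate of spread (-0.54, SE 0.12, adjusted p = 0.00705), as did Cabin1 (0.46, SE 0.10, adjusted p = 0.00400) and Chaf1b (-0.79, SE 0.23, adjusted p = 0.0452), with 3.83% of all genes called. Cabin1 passed with DESeq2 too (0.46, adjusted p = 0.0455), with 1.97% of the genes it gave an adjusted p called, though it gave none for Hira and Chaf1b, and limma voom called 0 of 9. Npm2 moved with the strip in controls as Chaf1a did, at 1670 to 2163 TPM in strip 11 and 1044 to 1506 TPM in strip 12. In the 5 Kdm5b samples of strip 11 Npm2 ranged from 1082 to 1447 TPM, without overlap with the controls there. Its log2 fold change within strip 11 was -0.56 (SE 0.15, edgeR adjusted p = 0.101). Neither the summed oocyte and zygote markers, at 6431 to 9058 TPM against 5379 to 7757 TPM, nor the summed 2-cell markers, at 483 to 727 TPM against 274 to 1042 TPM, separated these strips. Most of the first sum was Dppa3, with a median of 4722 TPM in control zygotes and 4259 TPM in control 2C samples. That sum can therefore show little of a difference in RNA clearance, and a difference in stage between the strips was not tested. The part of the strip in the stage difference of the Chaf1a to Chaf1b ratio was not tested.

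**Figure D4:**
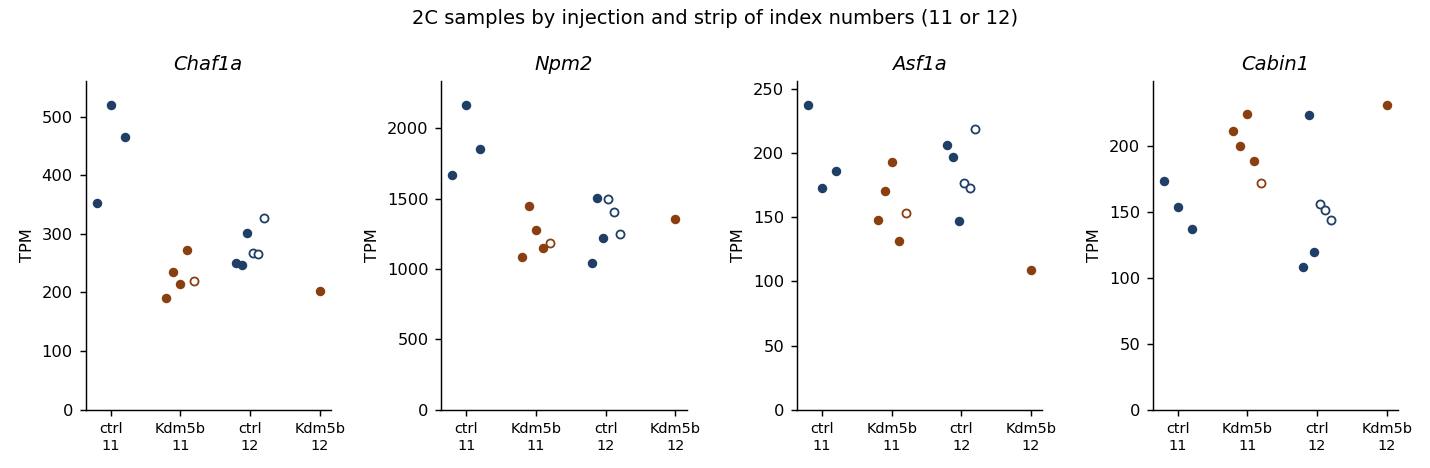
TPM (vertical axes, from 0) of Chaf1a, Npm2, Asf1a and Cabin1 in the 2C samples, split by injection and by inferred strip of 8 index numbers (11 or 12). Each point is a sample, open where it is a pool of blastomeres. The 3 controls of strip 11 lie above the other 2C samples for Chaf1a, at 352 TPM or more.

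A test of whether the change between stages differed between Kdm5b and control embryos (the interaction of stage and injection) called 0 of 9 genes by edgeR, DESeq2 or limma voom, against a background of 0.109% of 13778 genes. Unadjusted, 4 of 9 were under 0.05 by edgeR, with 9.1% of all genes below that p. These were Asf1a (-0.41, SE 0.13), Chaf1a (-0.44, SE 0.16), Cabin1 (0.33, SE 0.13) and Ubn1 (0.26, SE 0.10), and their adjusted p lay between 0.268 and 0.405. Within the injected groups, the share of counts taken by Kdm5b varied between samples, and the slope of each gene on the log2 of that share was fitted. It called 0 of 9 genes in zygotes, with 0% of 10273 genes called, and 0 of 9 at 2C, with 0% of 9499. Unadjusted, 0 of 9 were under 0.05 at either stage, against 3.59% of all genes in zygotes and 7.82% at 2C, and DESeq2 called 0 as well. The slopes lay between -0.053 and 0.15 in zygotes and between -0.51 and 0.39 at 2C per doubling of the share.

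Of the 7 further genes of the H3.3 route, 2 rose and 2 fell between the stages in controls and 3 did not pass. Over all genes, 26.8% were called higher and 25.4% lower in controls. Dek, an H3.3-binding chromatin protein, rose by 0.48 on the log2 scale (SE 0.10, adjusted p = 0.000232), and Ubn2, the relative of Ubn1, by 0.31 (SE 0.07, adjusted p = 0.000547). Of the H3.3 genes, H3f3a had a log2 fold change of -0.71 (SE 0.15, adjusted p = 0.000388), from a median of 333 to 216 TPM, while H3f3b, the more abundant, had 0.10 (SE 0.07, adjusted p = 0.216), with medians of 956 and 940 TPM. Setdb1, an H3K9 methyltransferase, had -0.66 (SE 0.13, adjusted p = 0.000194). Atrx, the partner of Daxx, had 0.11 (SE 0.12, adjusted p = 0.479). In Kdm5b embryos 2 rose (Dek, 0.55, and Ubn2, 0.24), 3 fell (H3f3a, -1.14, Setdb1, -1.10, and Morc3, -0.42) and 2 did not pass. There 29.3% of all genes were called higher and 29.5% lower.

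Over all genes, 25.4% were called lower and 26.8% higher in controls. Of the 12 partners in the replication-coupled route, 5 fell in controls, 2 rose and 5 did not pass. Those with the smallest p among the lower were Dnajc9, a histone co-chaperone (-1.16, SE 0.12), Hat1, the acetyltransferase of new H4 (-1.23, SE 0.21), and Nasp, which holds the soluble H3-H4 pool (-1.19, SE 0.22). Rbbp4, the small CAF-1 subunit, had -0.68 (SE 0.17, adjusted p = 0.00131), falling from a median of 47.5 to 28.4 TPM. The higher were Mms22l (0.71, SE 0.11) and Cdan1, a binder of ASF1 (1.06, SE 0.34). Cdan1 was scarce, and its range of 1.15 to 10.3 TPM in control 2C samples overlapped that of 1.65 to 3.35 TPM in control zygotes. In Kdm5b embryos, with 29.5% of all genes lower and 29.3% higher, 6 of these partners fell, 2 rose and 4 did not pass. Nasp (-1.70), Dnajc9 (-1.31) and Hat1 (-1.45) were among the lower, and Mms22l (0.83) and Cdan1 (1.28) were the higher. Cdan1 again overlapped between the stages, at 1.33 to 2.59 TPM in Kdm5b zygotes and 0.877 to 13.9 TPM in Kdm5b 2C samples. Pcna, the replication clamp that recruits CAF-1, was the gene that differed between these counts, with -0.10 in controls (SE 0.11, adjusted p = 0.448) and -0.88 in Kdm5b embryos (SE 0.11, adjusted p = 3.21e-07). It was the only gene of the 4 chaperone lists called in the interaction test (-0.76, SE 0.16, adjusted p = 0.0262).

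Among the 11 chaperones of H2A-H2B and of transcription, 5 rose and 4 fell in controls, where 26.8% and 25.4% of all genes did. Set (1.40, SE 0.26), Anp32e, which removes H2A.Z (0.95, SE 0.16), and Nap1l1 (0.42, SE 0.08) rose, while Nap1l4, a relative of Nap1l1 (-0.85, SE 0.11), Spty2d1 (-1.69, SE 0.23) and Supt6 (-0.61, SE 0.12) fell. The subunits of the FACT complex went opposite ways, with Ssrp1 at 0.22 (SE 0.07, adjusted p = 0.00843) and Supt16 at -0.78 (SE 0.15, adjusted p = 8.65e-05). In Kdm5b embryos 5 rose and 6 fell, where 29.3% and 29.5% of all genes did. With the smallest p, Anp32e (0.82), Set (1.32) and Nap1l1 (0.33) rose, and Supt16 (-1.20), Spty2d1 (-1.91) and Nap1l4 (-0.85) fell. Of the 4 genes of CENP-A loading, Cenpa, the centromeric H3 variant, rose by 1.04 (SE 0.16) in controls, and Mis18a (-1.45, SE 0.11) and Hjurp, the chaperone of CENP-A (-0.90, SE 0.15), fell. In Kdm5b embryos Cenpa rose (0.71) and Mis18a (-1.30) and Hjurp (-0.95) fell. The median log2 fold changes in controls were 0.11 for the H3.3 list, -0.060 for the replication-coupled list, -0.17 for the H2A-H2B list and 0.072 for the CENP-A list, against 0.022 over all genes. In the comparisons of Kdm5b with control embryos edgeR called 0 of these 34 genes at either stage, with 5 under an unadjusted p of 0.05 in zygotes, where 10.3% of all genes were, and 3 at 2C, where 9.41% were. DESeq2 called 1 H2A-H2B gene lower in zygotes, with 1.12% of all genes called in either direction, and 1 replication-coupled gene lower at 2C, with 1.97% called. With strip as a covariate edgeR called 2 genes of each of these lists lower at 2C, with 2.07% of all genes called. Over 11 alternative fits at 2C, the count called lower in each of these lists lay between 0 and 2. It differed from the main fit in 4 of them.

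**Figure D5:**
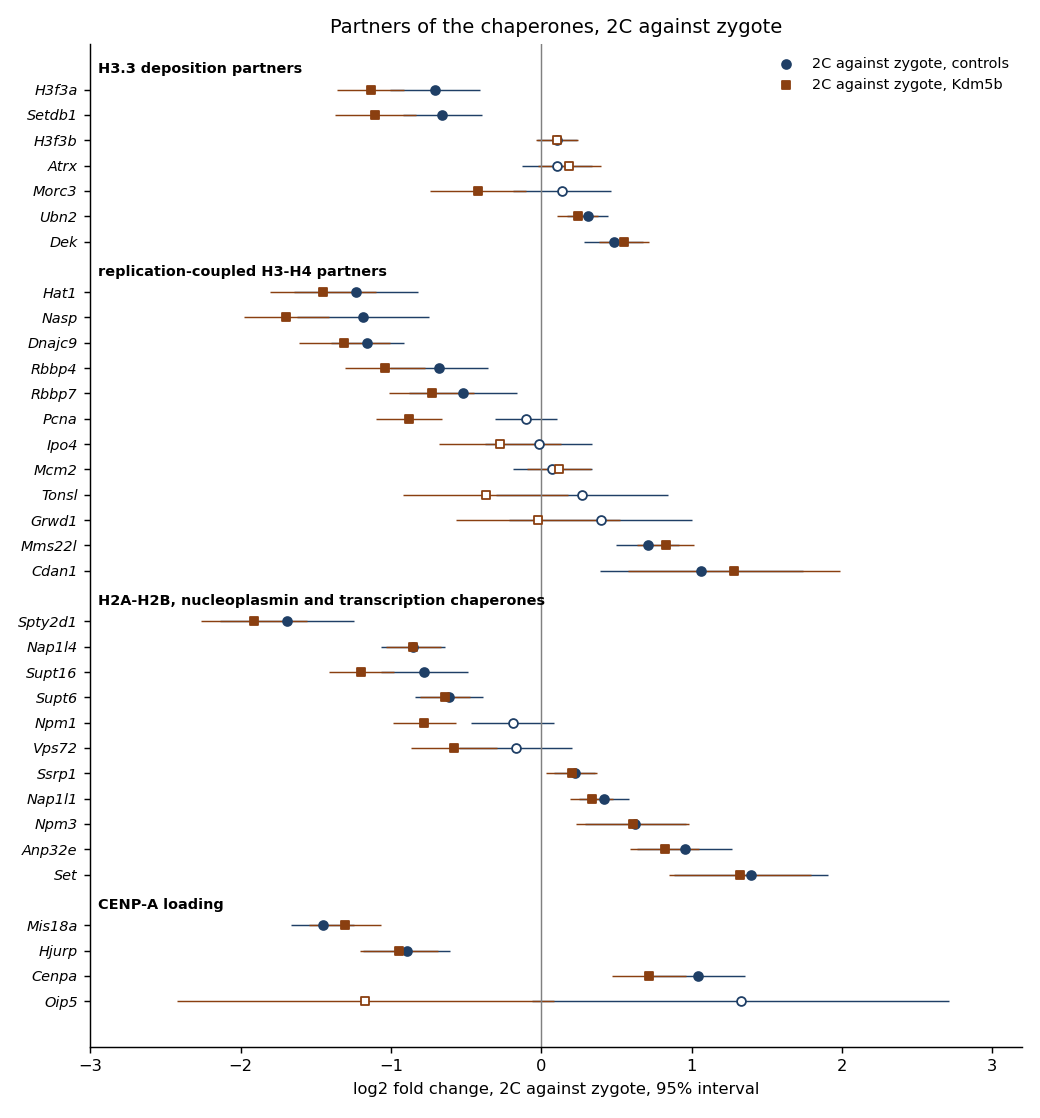
Log2 fold change between 2C and zygote (horizontal axis, with 95% interval) of the 34 partner genes in 4 lists, in controls (circles) and Kdm5b embryos (squares), edgeR quasi-likelihood test. Filled points passed an adjusted p of 0.05; Pcna is filled in Kdm5b embryos, at -0.88, and open in controls, at -0.10.

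For each of the 9 genes, the gene most like it over all 35 samples was found among 13777 others by the root mean square distance between centred log2 CPM values. Chaf1a and Npm2 had the same nearest gene, Hmgn1, a nucleosome-binding protein, at distances of 0.15 and 0.17, and their own spread was 0.57 and 0.54. Asf1b was nearest to Stx12 (0.12, own spread 0.31), Cabin1 to Plekha3 (0.13, own spread 0.34) and Asf1a to Smad2 (0.16, own spread 0.34). For Ubn1 the nearest gene, Rbm26, was farther away (0.15) than the own spread of Ubn1 (0.14), so the likeness describes only that both were steady. The low genes had looser neighbours, Mat2b for Hira (0.25), Txnl1 for Daxx (0.24) and Smarcc1 for Chaf1b (0.33).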

How the data were processed

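RNA-seq was run on single mouse zygotes, 2C embryos and pools of blastomeres. The authors trimmed reads with fastp 0.21.0, aligned them to GRCm38 (mm10) with STAR 2.7.3a and counted fragments per RefSeq gene on the reverse strand with featureCounts 1.5.1 (both ends mapped, chimeric fragments left out), so the deposited values were raw counts per gene, 1 column per sample, with a gene length in bases. The submitters' processing notes also name SAMtools 1.10 and DESeq2 1.30.1. Of the members only Asf1a overlaps another gene, Mcm9, on the opposite strand with no shared exon. Columns of no known sample numbered 0, no rows lacked a gene name (0) and 0 pairs of columns were identical.

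The Kdm5b row was removed and the 2 groups of each comparison were fitted separately with the edgeR 4.0.16 quasi-likelihood test (TMM, filterByExpr with a minimum count of 10, R 4.3.3). The interaction was fitted on all 35 samples. A call was an adjusted p under 0.05 (Benjamini-Hochberg over all genes tested), and both thresholds meant also a log2 fold change over 1 in size. TPM was computed from the counts and lengths without the Kdm5b row. Ratios of 2 genes were log2 ratios of counts per length, compared by permutation of samples, exact where a group had under 10 samples and with 100000 resamples otherwise (scipy), adjusted over 9 tests. Alternatives were DESeq2 1.42.0, limma 3.58.1 voom with quality weights, DESeq2 size factors, other filters (none, or a mean of at least 50 counts), the Kdm5b row kept, all 35 samples in a single fit, single intact embryos, strips inferred as runs of 8 index numbers, the replicate number as a block and each sample left out. The code was tested on simulated data.

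The text names all 9 members, their nearest gene and, for each partner list and stage comparison, up to 3 higher and 3 lower genes with the smallest p, and always Ubn2, Atrx, Rbbp4, H3f3a and H3f3b. Pcna, the rest of the FACT pair and the genes named where a count of 5 or fewer is given were chosen after their values were seen. From the list of CENP-A loading, 1 gene is not reported here. Members and lists were chosen with earlier results of these data known. The labels call the samples biological replicates, and the precision of a value is set by 6 to 10 samples a group. A separate table of estimated counts on repeats was not used here.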

Additional observations from a re-analysis of the deposited data

Results flagged for a closer look

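Of 48 sets of values tested for a sample far from the rest (9 genes and 3 ratios in 4 groups), 4 held such a sample, and chance alone flags about 1 in 20 groups. Hira was at 28.4 TPM in Kdm5b zygote replicate 3, against 14.4 to 21.2 TPM in the other Kdm5b zygotes. Ubn1 was at 175 TPM in control zygote replicate 10, against 137 to 154 TPM in the others. Chaf1b was at 30.3 TPM in control 2C replicate 6, against 10.9 to 20.3 TPM in the others. The log2 ratio of Hira to Chaf1a was -4.45 in control zygote replicate 1, against -5.27 to -4.91 in the others.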

How the results depend on the processing

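Between the stages the counts of the 9 genes called higher or lower stayed within 1.5 times under every alternative run, while of the partner lists 2 replication-coupled genes called higher became 1 with limma voom and with the replicate block at either injection, and 2 H3.3 genes called higher in Kdm5b embryos became 1 without the filter and with the block. The count past both thresholds moved because Npm2 lies next to the fold threshold: it was 1 without the filter on low counts and between 0 and 1 with a sample left out in controls, and in Kdm5b embryos 2 without the filter, in the single fit of all 35 samples and among single intact embryos, and between 1 and 2 with a sample left out. For Kdm5b against control at 2C, 1 gene was called higher by DESeq2 and in the single fit, and 2 lower in the single fit, 1 with strip as a covariate and 1 within strip 11. With a sample left out, 0 genes were called in either injection comparison or in the interaction.

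The sign of small differences turned in some fits: Ubn1 in controls, to 0.013 with limma voom, and Chaf1b in controls, between -0.015 and 0.20 with a sample left out. For Kdm5b against control in zygotes, strip 8 alone gave 0.071 for Hira, 0.024 for Ubn1 and -0.012 for Asf1b, and strip 10 alone gave -0.022 for Asf1a. With a sample left out Hira lay between -0.091 and 0.037 in zygotes and between -0.045 and 0.15 at 2C. At 2C limma voom gave -0.12 for Hira and -0.012 for Asf1b. The Chaf1a to Chaf1b ratio at 2C turned to -0.37 within strip 11 (exact permutation p = 0.25). Median TPM moved by less than 1 SD under each alternative run.

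Replicate numbers did not pair the samples: correlations of same-numbered deviations lay between -0.18 and 0.10, and at most 2 of 10 samples correlated best with their own number. With the replicate block, the Asf1a to Asf1b difference at 2C was -0.40 (exact p = 0.0625 over 6 pairs, where 0.0312 is the smallest possible), and Ubn1 between the stages in Kdm5b embryos was 0.18 (adjusted p = 0.113). That left 2 of the 9 genes called higher in Kdm5b embryos, and the block changed no other call among the 9 genes. The cause of these changes was not tested. Chaf1b, with 49 to 220 counts a sample, and Hira, with 106 to 672, are the least precise of the 9.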
